A study of Mus musculus with 24 samples.

Results

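The 10 genes described here act in the joining of myoblasts into multinucleated muscle fibres: Mymk, Mymx, Cdh15, Cdh2, Cdon, Ncam1, Myof, Dysf, Adgrb1 and Cd9. They were chosen by gene symbol out of 35260 genes named in the deposited transcript assemblies. The cells were C3H 10T1/2, fibroblasts of mouse embryo origin in which MyoD can start a muscle programme. Their values were compared over 24 RNA-seq libraries in 12 groups of 2. The groups were 2 LncMyoD knockout lines, clone 1 and clone 2, and wild type cells, each with MyoD adenovirus plus LncMyoD plasmid, with MyoD adenovirus, with LncMyoD plasmid, or untreated. Each knockout line is 1 clone. The labels describe, in the same words for every sample, growth in fetal bovine serum and a change to horse serum after conversion by MyoD. They do not say whether cells without MyoD were changed too, so an effect of medium cannot be told apart from that of the virus. No group with an empty virus or an empty plasmid was analysed here. The labels do not say whether the replicates are separate cultures, so the p-values measure the spread between these libraries, which may be technical.

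Vertebrate myoblasts first recognise and adhere to each other through cadherins and immunoglobulin-type receptors, and their membranes then merge. In mice the merging step needs the membrane protein myomaker (Mymk) together with the micropeptide myomerger (Mymx). Ferlins such as Myof and Dysf act in membrane trafficking and repair, Adgrb1 (BAI1) is a receptor for phosphatidylserine, and Cd9 is a tetraspanin. Fibroblasts normally lack both fusogens and gain the capacity to fuse when MyoD converts them.

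Mymx is the smallest coding gene of the set. The coding sequence of its most often assembled isoform spans chr17:45601417-45601671 of mm10, on the minus strand. It is printed because this short open reading frame encodes the fusogen that was detected in 1 of the 3 lines. Capitals mark the start and stop codons.
Mymx coding sequence: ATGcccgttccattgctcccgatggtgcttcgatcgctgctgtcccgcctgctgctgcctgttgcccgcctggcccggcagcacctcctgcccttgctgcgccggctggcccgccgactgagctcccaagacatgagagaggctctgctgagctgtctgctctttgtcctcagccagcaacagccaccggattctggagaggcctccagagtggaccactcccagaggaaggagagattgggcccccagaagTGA

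The libraries of clone 2 stood apart from all others. Transcripts over a ribosomal RNA window took 2.68% to 7.90% of TPM in clone 2, 36.8% to 70.0% in clone 1 and 55.6% to 69.2% in wild type. Mitochondrial transcripts took 7.91% to 14.0% in clone 2, 1.32% to 2.20% in clone 1 and 2.06% to 3.84% in wild type. Between 10416 and 13253 genes reached 1 TPM in clone 2 libraries, 4273 to 5759 in clone 1 and 5449 to 6964 in wild type. The aligned sequence was 3.49 to 5.04 gigabases in clone 2, 2.43 to 5.10 in clone 1 and 4.40 to 5.93 in wild type. On the log2(TPM + 1) scale the median gene was 1.05 higher in clone 2 than in wild type with MyoD and 1.72 higher without it. The part of library composition in any difference that involves clone 1 or clone 2 was not tested. An unannotated transcript of 2 exons over the lincRNA upstream of Myod1 was present in 12 of 12 libraries with the plasmid, at 2.64 to 53.3 TPM, and in 1 of 12 without it, a clone 1 library at 0.692 TPM. The labels give no plasmid sequence, so it is an assumption that this transcript comes from the plasmid. It says nothing on the knockout labels, because wild type cells without the plasmid also had none. Myod1 was at 1665 to 3641 TPM in clone 1, 930 to 1222 TPM in clone 2 and 3301 to 3735 TPM in wild type with the virus, and at 0 to 3.76 TPM in the libraries without it. Of 7 fibroblast markers, all 7 reached 1 TPM in every library. The summed TPM of 6 neuron and 4 epithelium markers was at most 5.10 and 1.91 in any library. The sum of 5 macrophage markers reached 7.63 TPM in clone 2, 5.55 TPM in clone 1 and 0.515 TPM in wild type. In clone 2, Lyz2 was at 3.91 TPM or more in every library without MyoD and at 0 to 6.27 TPM with MyoD. Lyz2 was listed at 0 in wild type. Csf1r was highest in clone 2, at 1.89 TPM, while Ptprc and Cd68 were highest in clone 1, at 2.801 and 2.75 TPM. Adgre1 was listed at 0 throughout. The part of these macrophage markers in the line differences was not tested. The sum of 5 smooth muscle markers was 549 to 790 TPM in clone 2, 39.7 to 84.0 TPM in clone 1 and 92.8 to 143 TPM in wild type. Most of it in clone 2 was Acta2, at 499.5 to 745 TPM, while Myh11 was at most 1.42 TPM and Cnn1 at most 0.867 TPM there. Its part in the clone 2 differences was not tested. In these bulk samples, fewer cells that express a gene and less of its RNA per cell cannot be told apart.

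A transcript was assigned to a gene by the reference name the assembler gave it, and 7 of the 10 genes had such a transcript in at least 1 library. Cdh15, Dysf and Adgrb1 had none. For the remainder the share of the gene's TPM that carried its name ran from 2.00% for Myof through 11.3% for Cdon, 16.7% for Ncam1 and 80.4% for Cdh2 to 95.5% for Mymk, 98.8% for Cd9 and 100% for Mymx. A second measure, length-weighted TPM, therefore also counted unnamed transcripts that share at least 50% of their exonic length with a gene, each scaled by the bases it covers. Unnamed transcripts were counted only where the assembler gave them a strand, and only on the strand of the gene. The second measure was chosen after the data were seen, and 8 of the 10 genes were tested on it. TPM values are per length and can be set beside each other between genes. Changes are given as log2 of TPM + 1, and a gene was called at a limma adjusted p under 0.05 with a log2 change of at least 1.

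**Figure D1:**
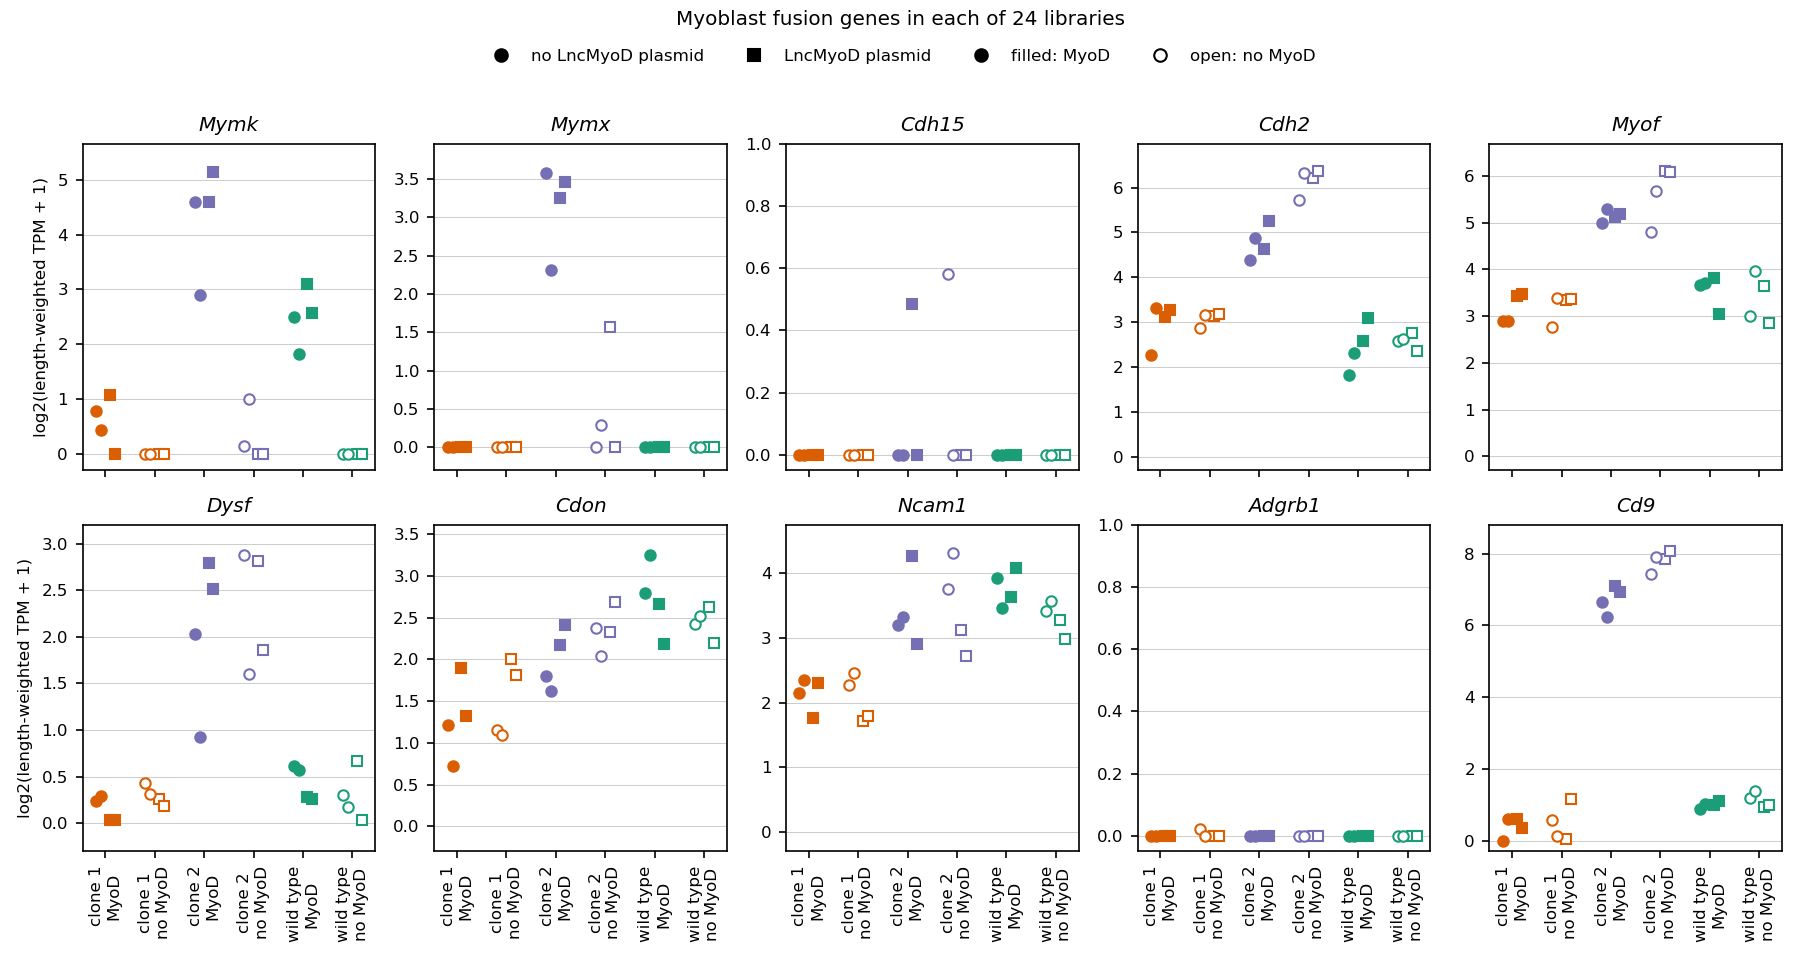
Length-weighted TPM of the 10 genes on the log2(TPM + 1) scale, 1 point per library, with 4 libraries for each line and MyoD state. Mymk was above 2 TPM in all wild type and clone 2 libraries given MyoD, while Mymx was above 3 TPM only in the 4 clone 2 libraries given MyoD, and Cd9, Cdh2, Myof and Dysf were higher in every clone 2 library than in any other.

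Mymk (chr2:27061636-27072179, minus strand, 5 exons) was the 1 gene of the set that rose with MyoD in wild type cells. The named TPM was 4.65 and 2.53 with MyoD alone and 7.62 and 4.92 with MyoD and the plasmid, and Mymk was listed at 0 in all 4 wild type libraries without MyoD. The groups did not overlap, and the adjusted p was 0.00428; no fold is given against a group listed at 0. In this comparison Mymk was called of 7 genes tested, where 0.15% of all 16695 genes were called. Length-weighted TPM gave the same call (adjusted p = 0.00127), 1 of 8 genes where 0.143% of all genes were called. Without MyoD, Mymk reached 1 TPM only in untreated clone 2 replicate 2. It therefore passed the filter on low values through libraries with MyoD. For that reason the calls of Mymk with MyoD against without, in wild type and in clone 2, are a description. The named call was lost when only the arms without plasmid were compared (adjusted p = 0.177), when only the wild type libraries were fitted (0.065) and with a pseudocount of 5 (0.18).

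In clone 2 Mymk reached higher values. With MyoD it was at 23.1 and 6.43 TPM, with MyoD and the plasmid at 23.1 and 32.8 TPM, and in the 4 libraries without MyoD at 0, 1.00, 0 and 0 TPM. Every clone 2 library with MyoD was above every one without, a log2 change of 4.04 ± 0.35 (SE, limma adjusted p = 9.46e-07). In clone 1 the only named Mymk transcript was at 1.12 TPM in replicate 1 of the group with MyoD and the plasmid, and the other 7 libraries were listed at 0. Unnamed transcripts added 0.721 and 0.347 length-weighted TPM in the 2 clone 1 libraries with MyoD alone. The MyoD response of clone 1 called 0 of 7 genes on named transcripts, where 0.0958% of all genes were called, and 0 of 8 length-weighted, where 0.0385% were. Named Mymk had a log2 change of 0.27 ± 0.35 (adjusted p = 1).

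Between lines given MyoD, Mymk was lower in clone 1 than in wild type by a log2 change of -2.23 ± 0.35 (SE, adjusted p = 0.00107), and this call was kept on the length-weighted scale. It was higher in clone 2 than in wild type by 1.79 ± 0.35 (adjusted p = 0.000329), with clone 2 at 6.43 to 32.8 TPM and wild type at 2.53 to 7.62 TPM, ranges that overlap through clone 2 with MyoD alone, replicate 2. The clone 2 difference depends on the scale of the libraries: with the ribosomal and mitochondrial transcripts taken out of the total, length-weighted Mymk differed by 0.63 ± 0.48 (adjusted p = 0.318), and with median-of-ratios scaling by -0.63 (adjusted p = 0.21). The test of the difference between the MyoD responses of clone 2 and wild type gave an adjusted p of 0.0575 for Mymk, and that of clone 1 and wild type gave 0.278.

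Mymx (chr17:45600971-45602102, minus strand) was listed at 0 in all 8 clone 1 and all 8 wild type libraries, with and without MyoD. In clone 2 it was at 11.3 and 3.98 TPM with MyoD and at 8.79 and 10.0 TPM with MyoD and the plasmid, against 2.55 and 0 TPM with the plasmid alone and 0 and 0.221 TPM untreated. All 4 clone 2 libraries with MyoD were above the 4 without. The log2 change with MyoD in clone 2 was 2.64 ± 0.32 (SE, limma adjusted p = 2.81e-05). Mymx passed the filter on low values through clone 2 libraries alone, among them all 4 with MyoD. Its call with MyoD within clone 2 is therefore given as a description. Its calls against wild type, where it is listed at 0 throughout, follow from the same filter and are a description too. The fitted difference in MyoD response between clone 2 and wild type restates the clone 2 response, and it was the 1 call among 7 genes in a comparison where 10.8% of all genes were called.

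The state of conversion differed in the same libraries. Myog, a transcription factor of muscle differentiation, was listed at 0 in every library without MyoD, and with MyoD it was at 0 to 2.69 TPM in clone 1, 43.9 to 120 TPM in clone 2 and 2.42 to 5.05 TPM in wild type. The summed TPM of 7 skeletal muscle markers with MyoD was 2.42 to 7.74 in clone 1, 359 to 682 in clone 2 and 20.1 to 27.1 in wild type, and Ckm, the muscle creatine kinase, was listed at 0 in all clone 1 and wild type libraries. Mymx was highest in the clone 2 libraries with MyoD, which also had the highest muscle marker sums, whereas Mymk in 1 of these, at 6.43 TPM, was below the highest wild type library, at 7.62 TPM. Over the 12 group means, the genes whose pattern was most like that of Mymk were Chrng (Pearson r = 0.979) and Chrnd (0.975), subunits of the muscle acetylcholine receptor, and Cck (0.964). For Mymx they were Cox6a2 (0.996), the muscle form of a cytochrome c oxidase subunit, Ggct (0.993) and Prkag3 (0.986). The group means share libraries and their composition, and these coefficients are a description.

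**Figure D2:**
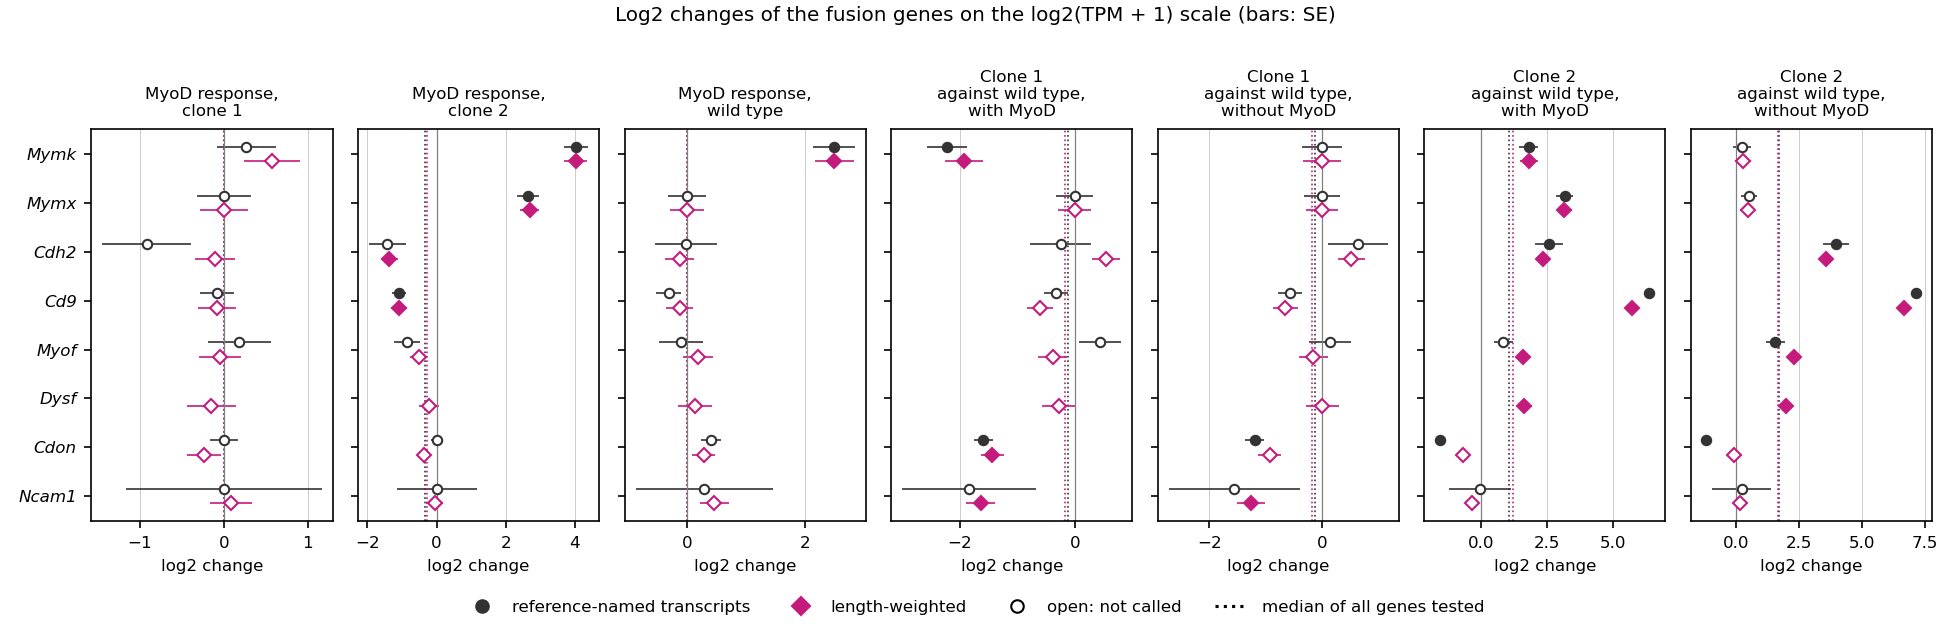
Log2 changes on the log2(TPM + 1) scale with SE for the 8 genes tested, for reference-named transcripts (circles) and length-weighted TPM (diamonds), filled where called; dotted lines mark the median of all genes tested. With MyoD, Mymk and Mymx rose in clone 2, and the clone 2 differences of Cd9 and Cdh2 from wild type lie to the right of the dotted lines; fitted values against groups listed at 0 depend on the pseudocount.

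Of the adhesion genes, Cdh15 (M-cadherin, chr8:122847966-122867397), the cadherin of myoblasts and satellite cells, was close to undetected. It had 0.399 length-weighted TPM in 1 clone 2 library with MyoD and the plasmid and 0.495 TPM in 1 untreated clone 2 library, and was listed at 0 in the other 22. Its share of the summed Cdh15 and Cdh2 TPM was at most 1.65% in clone 2 and 0 in clone 1 and wild type. No library given MyoD therefore showed a cadherin pattern led by Cdh15.

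Cdh2 (N-cadherin, chr18:16588877-16809246, minus strand, 16 exons), a cadherin of mesenchymal cells and myoblasts, was detected in all 24 libraries. Its length-weighted TPM in clone 2 was 19.98 and 28.2 with MyoD, 23.8 and 37.4 with MyoD and the plasmid, 72.9 and 81.8 with the plasmid, and 51.6 and 79.4 untreated. It was 3.79 to 8.96 in clone 1 and 2.51 to 7.59 in wild type. All 8 clone 2 libraries were above the other 16. The log2 difference of clone 2 from wild type on this scale was 2.34 ± 0.24 with MyoD (adjusted p = 1.06e-07) and 3.58 ± 0.24 without (adjusted p = 3.07e-10), where the median gene differed by 1.21 and 1.69. On named transcripts and median-of-ratios scaling neither difference was called, at 0.11 (adjusted p = 0.962) with MyoD and 0.95 (0.227) without.

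Within clone 2, Cdh2 was lower with MyoD than without: the length-weighted log2 change was -1.37 ± 0.24 (adjusted p = 0.000438), with no overlap between the 4 libraries with and the 4 without. On named transcripts the change was of the same size, -1.43 ± 0.53, and missed the threshold (adjusted p = 0.0597). The summed fibroblast markers were at 2233 to 3646 TPM with MyoD and 9561 to 12769 TPM without in clone 2. The collagens Col1a1, Col1a2 and Col3a1 make most of that sum, and they, Pdgfra and Pdgfrb were lower in every library with MyoD than in any without. Thy1 overlapped, at 2.21 to 6.09 TPM with MyoD and 5.08 to 8.39 TPM without, and so did Vim, at 786 to 1137 TPM with MyoD and 749 to 943 TPM without. The part of these markers in the Cdh2 change was not tested. The protein-coding Cdh2 isoform was assembled in 8 of 8 clone 2 libraries and made 88.3% to 99.5% of named Cdh2 there. It was named in 3 of 8 clone 1 libraries, none of them with MyoD, and in 3 of 8 wild type libraries, and a retained-intron form was named in all 24.

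Ncam1 (chr9:49502136-49798925, minus strand, 18 exons) and Cdon (chr9:35421128-35507652, plus strand, 20 exons) are immunoglobulin-superfamily receptors; Cdon also promotes myogenic differentiation. Length-weighted Ncam1 was at 2.40 to 4.12 TPM in clone 1 with MyoD, 6.52 to 18.4 TPM in clone 2 with MyoD and 10.1 to 16.04 TPM in wild type with MyoD. Without MyoD it was at 2.27 to 4.499 TPM in clone 1, 5.62 to 18.8 TPM in clone 2 and 6.93 to 10.9 TPM in wild type. Each of the 8 clone 1 libraries was below each of the 8 wild type libraries, by a log2 change of -1.64 ± 0.25 with MyoD (adjusted p = 0.000346) and -1.26 ± 0.25 without (adjusted p = 0.00296). Named Ncam1 transcripts were listed at 0 in all 8 clone 1 libraries and varied from 0 to 22.7 TPM in wild type, and that test called no difference for Ncam1 (adjusted p = 0.461 and 0.681).

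Length-weighted Cdon was at 0.644 to 2.72 TPM in clone 1 with MyoD and 3.56 to 8.54 TPM in wild type with MyoD, a log2 change of -1.44 ± 0.20 (adjusted p = 0.000167). Without MyoD it was at 1.14 to 3.01 TPM in clone 1 and 3.58 to 5.20 TPM in wild type, and the change of -0.93 ± 0.20 (adjusted p = 0.00556) fell short of the size required. In both states the clone 1 and wild type libraries did not overlap. Named Cdon transcripts were found in 5 wild type libraries at 0.534 to 6.79 TPM and listed at 0 in all 16 clone libraries. On that scale Cdon passed the filter through wild type libraries alone and had to differ. It was called lower in clone 1 with MyoD (limma adjusted p = 4.07e-05) and without (limma adjusted p = 0.000582). Untreated wild type was listed at 0 as well. The call without MyoD therefore came from wild type with the plasmid alone, at a mean of 4.30 TPM. These named values depend on whether the assembler matched a reference isoform. Clone 2 was also called lower than wild type on named transcripts (limma adjusted p = 3.46e-07 with MyoD and 8.72e-06 without). That call was not kept on the length-weighted scale, with clone 2 at 2.09 to 4.30 TPM with MyoD and 3.10 to 5.45 TPM without. The part of isoform naming in this was not tested.

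For clone 1 against wild type, named transcripts thus called 2 of 7 genes with MyoD, Mymk and Cdon, where 6.61% of all genes were called, and 1 of 7 without MyoD, Cdon, where 4.15% were. Named Cdon passed the filter through wild type libraries alone, so its part in both counts is a description. Length-weighted TPM called 3 of 8 with MyoD, adding Ncam1, where 8.2% of all genes were called, and 1 of 8 without, Ncam1, where 5.97% were. All these genes were lower in clone 1, and the shares of all genes count both directions. Clone 1 libraries had a median of 5231.5 genes at 1 TPM and 3.87 aligned gigabases, against 6269.5 and 4.98 in wild type. The part of depth and library composition in these differences was not tested. Cdh2, Cd9, Myof and Dysf were not called between clone 1 and wild type in either state or on either scale.

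**Figure D3:**
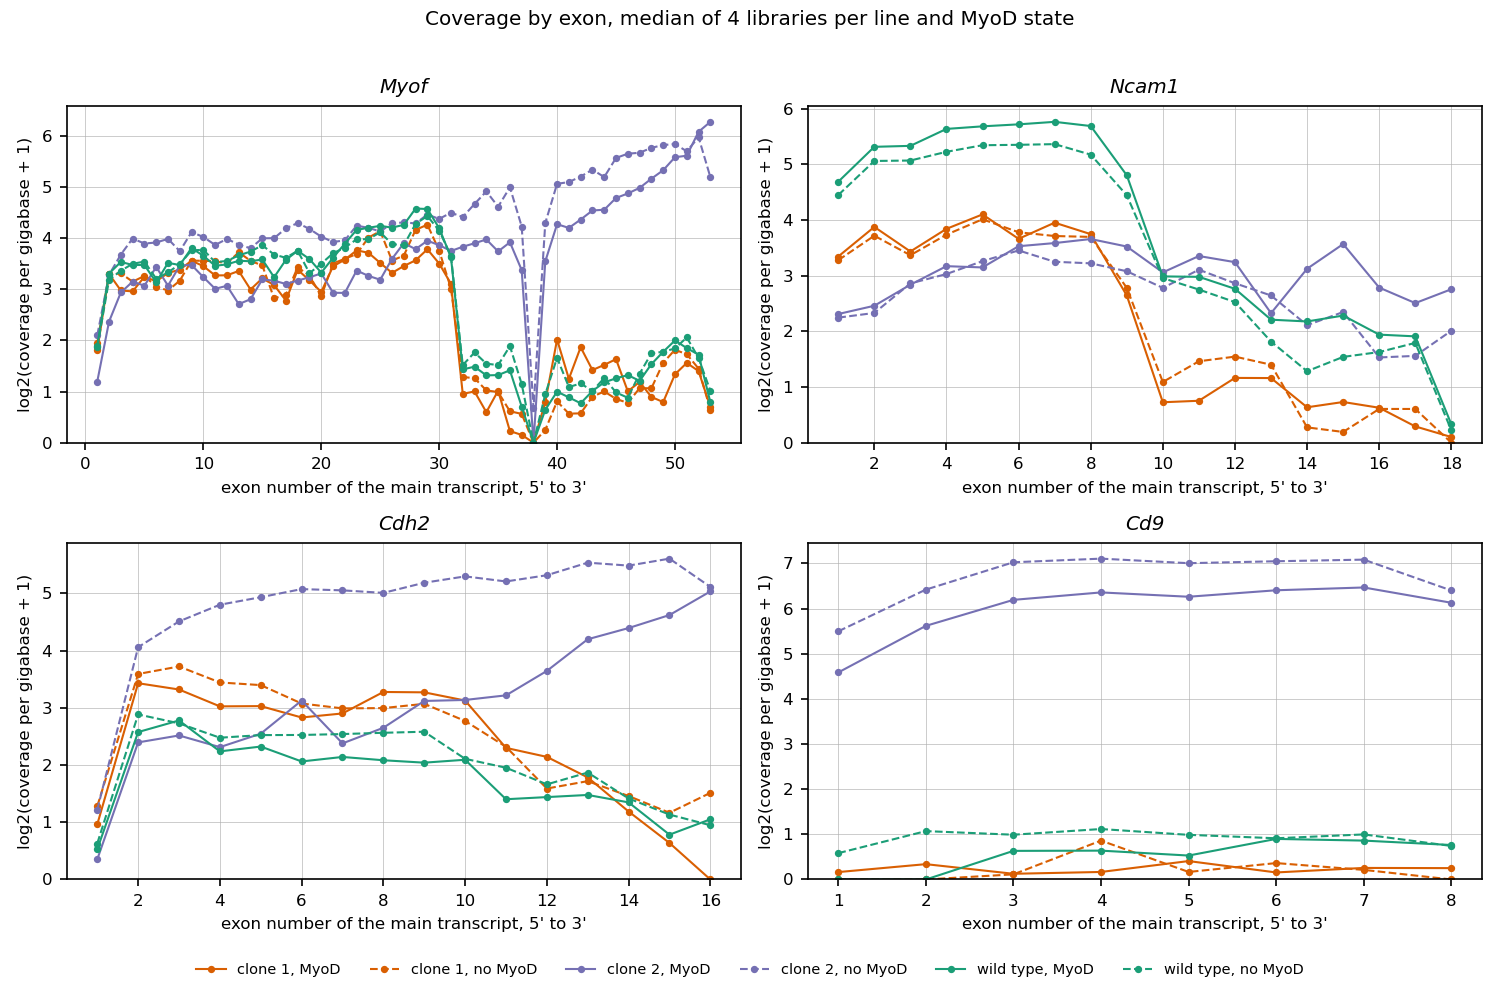
Median coverage per aligned gigabase of 4 libraries, log2(coverage + 1), along the exons of the main transcript of Myof, Ncam1, Cdh2 and Cd9. Coverage of Myof falls at exon 32 and that of Ncam1 at exon 10 in clone 1 and wild type, while in clone 2 Myof coverage is higher over exons 32 to 53 than in either other line; exon 38 of Myof is near 0 in all.

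The ferlins Myof (chr19:37899036-38043577, minus strand, 53 exons) and Dysf (chr6:84008590-84211060, plus strand, 55 exons) were assembled almost wholly as unnamed fragments. Length-weighted Myof in clone 2 was 30.7, 38.1, 33.6 and 35.2 TPM in the 4 libraries with MyoD and 26.7, 49.9, 67.6 and 66.6 TPM in the 4 without, against 5.85 to 10.1 TPM in clone 1 and 6.21 to 14.6 TPM in wild type. The clone 2 values did not overlap the others, and the log2 difference from wild type was 1.58 ± 0.25 with MyoD (adjusted p = 2.18e-05) and 2.29 ± 0.25 without (adjusted p = 2.11e-07), where the median gene differed by 1.21 and 1.69. With ribosomal and mitochondrial transcripts removed from the total, the Myof differences were 0.31 and 0.97 and neither was called. Myof has no MyoD call in any line on either scale.

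Dysf, the ferlin of membrane repair in mature muscle, was low throughout. It was at 3.08, 0.905, 5.94 and 4.72 length-weighted TPM in the clone 2 libraries with MyoD and 6.33, 2.03, 6.03 and 2.62 TPM in those without. Clone 1 was at 0.0238 to 0.353 TPM and wild type at 0.0239 to 0.589 TPM, below every clone 2 library. Dysf passed the filter through clone 2 libraries alone, so its difference from wild type is a description. It was 1.63 ± 0.29 with MyoD (adjusted p = 8.01e-05) and 1.99 ± 0.29 without (adjusted p = 7.69e-06), and 1.26 and 1.77 after the ribosomal and mitochondrial transcripts were removed. As a share of summed Dysf and Myof, which the scaling of a library does not move, Dysf was 2.32% to 19.2% in clone 2 (median 8.66%), 0.245% to 5.70% in clone 1 (median 2.33%) and 0.383% to 4.87% in wild type (median 2.94%). Myof remained higher than Dysf in these cells with and without MyoD, and no other ferlin was set beside them.

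The Myof reads were spread unevenly over the gene. Coverage of exons 1 to 31 overlapped between the lines, at 5.87 to 18.3 per gigabase in clone 2, 6.27 to 12.8 in clone 1 and 8.46 to 15.2 in wild type. Exons 32 to 53 had 5.23 to 46.6 per gigabase in clone 2, against 0.778 to 2.54 in clone 1 and 0.459 to 2.26 in wild type. Clone 2 and the other lines did not overlap over exons 32 to 53. The ratio of the last to the first exons was 0.350 to 5.74 in clone 2, 0.0748 to 0.253 in clone 1 and 0.0354 to 0.217 in wild type.

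Ncam1 showed a step at another place. Coverage of exons 10 to 18 over exons 1 to 9 was 0.158 to 1.40 in clone 2, 0.00153 to 0.0495 in clone 1 and 0.0243 to 0.0448 in wild type, so the wild type Ncam1 signal came nearly all from the first 9 exons, at 27.2 to 49.9 per gigabase. Over those exons clone 2 had 4.04 to 9.99 and clone 1 had 8.27 to 13.9 per gigabase. Both clones were below wild type there, although the summed length-weighted Ncam1 of clone 2 overlapped that of wild type with and without MyoD.

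Cdh2 in clone 2 had a ratio of exons 11 to 16 over exons 2 to 10 of 2.55 to 7.13 with MyoD and 0.886 to 1.37 without. The lower Cdh2 of clone 2 with MyoD was mostly in exons 2 to 10, at 4.24 to 12.2 per gigabase with MyoD and 25.6 to 34.2 without, and less in exons 11 to 16, at 20.01 to 31.1 with MyoD and 22.7 to 41.9 without. In clone 1 the ratio was 0.104 to 0.303 and in wild type 0.157 to 0.383, apart from wild type with MyoD replicate 1 at 7.18, where exons 2 to 10 were near 0. Cdon in clone 2 with MyoD was covered in exon 20 alone, with exons 1 to 19 at 0 in 4 of 4 libraries.

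The same direction was seen over the libraries as a whole. In named transcripts of at least 10 exons, the median ratio of coverage in the second set of exons to that in the first was 1.56 to 1.65 in clone 2 with MyoD, 1.296 to 1.41 in clone 2 without, 0.618 to 0.728 in clone 1 and 0.604 to 0.659 in wild type. Its part in the exon patterns of Myof, Ncam1, Cdh2 and Cdon was not tested. The exon sets were drawn after the coverage was seen and get no test.

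**Figure D4:**
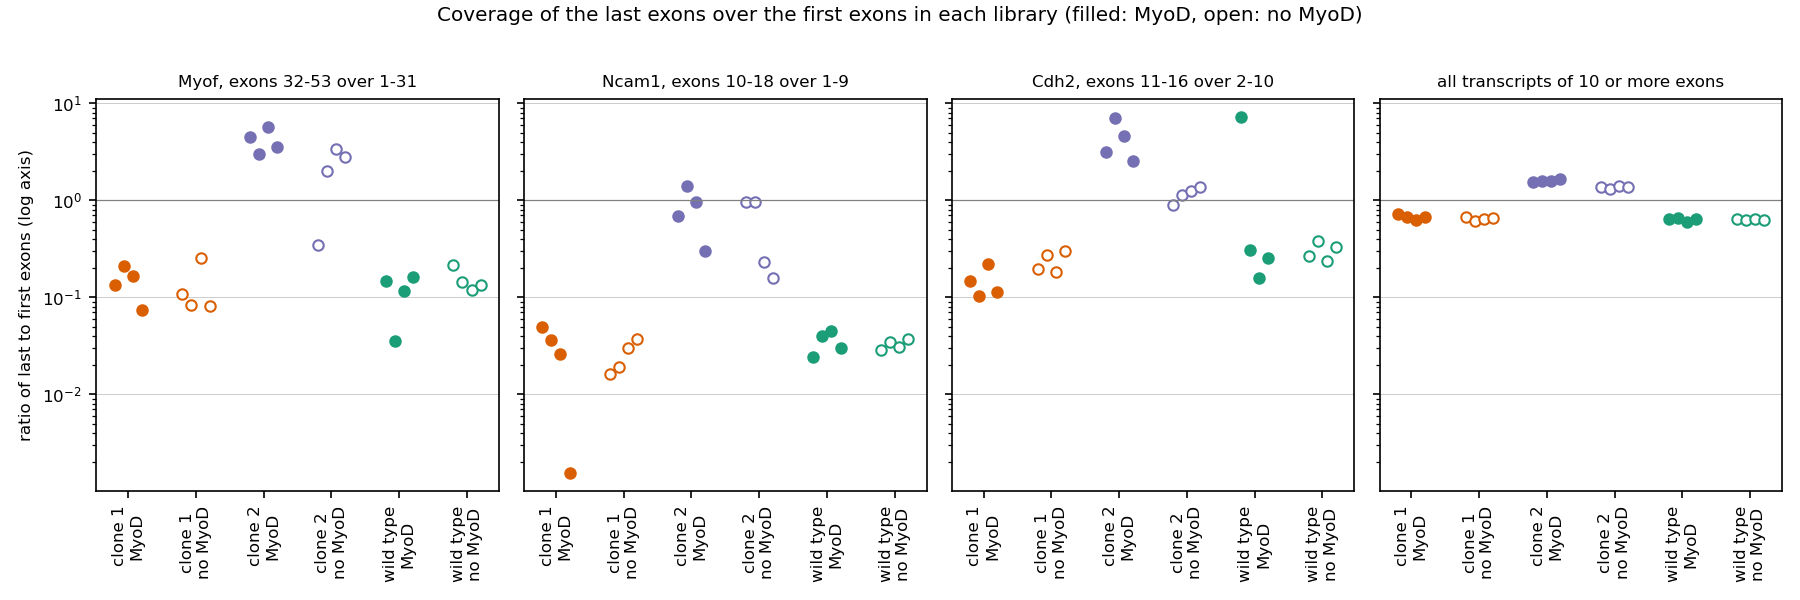
Ratio of coverage in the last exons to the first exons in each library on a log axis, for Myof, Ncam1, Cdh2 and as the median of all named transcripts of at least 10 exons. Clone 2 is above 1 in the last panel and the other lines below 1, and the spread between lines is wider for Myof and Ncam1 than for the median transcript.

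Exon 38 of the main Myof transcript (chr19:37926983-37926994) has only 12 bases. Its median coverage in clone 2 was 0 per gigabase with MyoD, where exons 37 and 39 had 9.39 and 10.7, and 0.597 without MyoD, where they had 17.8 and 18.7. In clone 1 and wild type the median of exon 38 was 0 in both states. It is shown in capitals between 30 coding bases of the exons before and after it, because its coverage was far below that of its neighbours.
Myof exon 38 and flanks: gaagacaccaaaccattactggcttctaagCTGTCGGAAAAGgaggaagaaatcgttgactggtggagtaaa

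Cd9 (chr6:125460266-125494791, minus strand, 8 exons), a tetraspanin of the cell surface linked to membrane fusion in eggs and muscle, differed most between lines. Named TPM in clone 2 was 98.4 and 74.3 with MyoD, 135 and 122 with MyoD and the plasmid, 227 and 267 with the plasmid and 171 and 240 untreated. Clone 1 was at 0 to 0.134 TPM and wild type at 0 to 1.65 TPM. On the length-weighted scale clone 1 was at 0 to 1.23 TPM and wild type at 0.832 to 1.60 TPM, so the named zeros are in part a matter of naming. The log2 difference of clone 2 from wild type was 6.38 ± 0.21 with MyoD (limma adjusted p = 5.30e-13) and 7.15 ± 0.21 without (adjusted p = 3.08e-13). The length-weighted values after removal of ribosomal and mitochondrial transcripts were 4.98 and 5.82, the largest of the set, and these calls were kept in every alternative. In clone 2 the protein-coding Cd9 isoform made at least 99.5% of named Cd9.

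Within clone 2, Cd9 was lower with MyoD than without by a log2 change of -1.09 ± 0.21 (adjusted p = 0.00122), and the 4 libraries with MyoD were all below the 4 without. The median gene fell by 0.33 in the same comparison, and with the rescaled totals the Cd9 change was -0.98 and not called. Leaving out untreated clone 2 replicate 2 (-0.97) or clone 2 with MyoD replicate 2 (-0.99) also brought it under the size required. The call was further lost with median-of-ratios scaling (-0.61), FPKM (-0.56), a pseudocount of 0.1 (adjusted p = 0.119), the plasmid arms alone (-0.94), and length weighting with rescaled totals (-0.97), so in 8 of 21 alternatives. The part of the fibroblast markers given beside Cdh2 was not tested here either. In clone 2 the MyoD response called 3 of 7 genes, Mymk and Mymx higher and Cd9 lower, where 18.9% of all genes were called, 1.54% higher and 17.3% lower. On the length-weighted scale Cdh2 joined them as lower, 4 of 8, where 17.5% of all genes were called. In both counts the Mymx and Mymk calls are a description. Mymx passed the filter through clone 2 libraries alone, and Mymk passed it through libraries with MyoD.

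The promoter of Cd9 is printed because Cd9 is the gene with the largest difference between lines among the 5 genes of the set with a RefSeq promoter window. The 231 bases at chr6:125494780-125495010 (minus strand, GRCm38.p6) end with the third E-box before the RefSeq start, and capitals mark the 3 matches to CANNTG, the motif bound by MyoD and other bHLH factors, which reads the same on both strands.
Cd9 promoter: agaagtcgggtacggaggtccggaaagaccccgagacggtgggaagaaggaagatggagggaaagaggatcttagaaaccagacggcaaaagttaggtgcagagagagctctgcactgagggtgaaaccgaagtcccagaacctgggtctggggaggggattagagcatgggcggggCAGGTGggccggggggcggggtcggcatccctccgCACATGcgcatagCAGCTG
The last match is CAGCTG, which GENCODE places just inside the first exon of Cd9. Of 32851 windows of 250 bases before a RefSeq start, 66.2% held CANNTG, 12.2% held at least 3 and 13.001% held CAGCTG. Among the other genes of the set, the Cdh15 window held 3 CANNTG and no CAGCTG, and the windows of Cdon, Dysf and Myof held neither.

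Against wild type, clone 2 had 5 of 7 genes called on named transcripts with MyoD: Mymk, Mymx, Cdh2 and Cd9 higher, where 48.2% of all genes were, and Cdon lower, where 4.07% were, 52.3% in all. Without MyoD 4 of 7 were called, Cdh2, Cd9 and Myof higher, where 61.9% of all genes were, and Cdon lower, where 1.84% were, 63.7% in all. Every named Myof transcript was a retained-intron form. Without MyoD, named Myof was at 2.47 to 2.94 TPM in clone 2 and 0.0608 to 0.690 TPM in wild type. The length-weighted calls were 6 of 8 with MyoD, where 57.5% of all genes were called, and 4 of 8 without, where 66% were. These shares are near those of all genes, but they include calls that follow from the filter and are a description. Those are the calls of named Cdon, which passed through wild type alone, and of Mymx and length-weighted Dysf, which passed through clone 2 alone. The call of named Myof belongs with them, because it would not have passed without the clone 2 libraries. Outside clone 2 only clone 1 with MyoD and the plasmid, replicate 2, reached 1 TPM, at 2.67 TPM. Of the genes called in all, 8046 were higher and 680 lower with MyoD and 10335 higher and 307 lower without; with median-of-ratios scaling 3611 were higher and 2112 lower with MyoD and 3532 higher and 1778 lower without, and with rescaled totals 6475 were higher and 1529 lower with MyoD. With length weighting and rescaled totals the set divided: Cd9, Cdh2, Dysf and Mymx were called higher with MyoD and Cd9, Cdh2 and Dysf without, while Ncam1 (-1.67 with and -1.18 without) and Cdon (-1.99 and -1.36) were called lower, where 43.1% of all genes were called with MyoD and 46.6% without. Whether Ncam1 and Cdon were called lower in clone 2 therefore depended on the total that TPM is set against. For Cdon it also depended on which transcripts were summed.

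Adgrb1 (chr15:74516195-74589465, plus strand, 31 exons) was covered in 1 library only, untreated clone 1 replicate 1, at 0.0157 TPM, and was listed at 0 in the other 23. No comparison is possible for it.

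The LncMyoD plasmid called 0 of 7 genes with MyoD, as a mean over the 3 lines, where 0.27% of all genes were called, and 0 of 7 without MyoD, where 0.0479% were. On the length-weighted scale it also called none of 8, where 0.0385% and 0.022% of all genes were called. For Mymk the log2 change with the plasmid in MyoD-treated cells was 0.77 ± 0.29 (limma adjusted p = 0.427), and Mymk passed the threshold when clone 2 with MyoD replicate 1 was left out. Named Cdon passed the adjusted threshold in both states, with a log2 change of -0.86 with MyoD (adjusted p = 0.00975) and 0.79 without (adjusted p = 0.0346), both under the size required, and its length-weighted changes were 0.21 (adjusted p = 0.812) and 0.34 (adjusted p = 1). Over all genes 1366 with MyoD and 847 without had an unadjusted p under 0.05. In clone 1 with MyoD, the plasmid arm had Mymk at 1.12 and 0 length-weighted TPM and the arm without it 0.721 and 0.347. Mymx stayed at 0 in clone 1 in both arms.

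The difference in MyoD response between clone 1 and wild type called 0 of 7 genes, where 0.012% of all genes were called, and 0 of 8 length-weighted, where 0.0165% were. For clone 2 the length-weighted scale called Mymx, Mymk (1.52, adjusted p = 0.038) and Cdh2 (-1.24, adjusted p = 0.0209), 3 of 8, where 13% of all genes were called. The Mymx call restates its clone 2 response and is a description. The Mymk call was lost in 11 of the 16 fits that left out a library and the Cdh2 call in 4.

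Other genes of fusion were followed as a list of 46, of which 34 were tested on named transcripts. MyoD called 0 of 34 in clone 1 and 0 of 34 in wild type, with medians of -0.09 and -0.0016, and in clone 2 it called 8 lower and 0 higher, with a median of -0.70 against -0.33 for all genes. Of all genes, 0.0958% were called in clone 1 and 0.15% in wild type, and 17.3% were called lower in clone 2. The 4 largest were Il4ra (-3.22), the interleukin 4 receptor chain, Igsf8 (-2.83), a partner of Cd9 and Cd81, the adaptor Crk (-2.45), and Nckap1 (-2.25), a subunit of the WAVE actin regulator. In clone 1 against wild type 3 genes were lower with MyoD, Itga7 (-2.08), Vcam1 (-1.65) and Ehd2 (-1.06), and 3 without, Ehd2 (-1.17), Crk (-1.09) and Anxa5 (-1.02), where 6.61% and 4.15% of all genes were called. In clone 2 against wild type 16 were higher and 2 lower with MyoD, and 22 higher and 0 lower without, with medians of 1.01 and 2.20 beside 1.05 and 1.72 for all genes. Of all genes, 48.2% were higher and 4.07% lower with MyoD, and 61.9% were higher and 1.84% lower without, so the list's counts are near the background. The largest with MyoD were the adhesion and membrane genes Ctnna1 (4.62), Anxa5 (4.52) and Cd81 (4.22), and Itgb1 (3.98), and the 2 lower ones were Kirrel (-3.02) and Neo1 (-2.46). With length weighting and rescaled totals 15 were higher and 8 lower with MyoD, and 17 higher and 7 lower without. The plasmid called 3 lower with MyoD, Crk (-1.90), Rac1 (-1.31) and Nckap1 (-1.29), where 0.27% of all genes were called. It called 0 with MyoD on the length-weighted scale, and 0 without MyoD, where 0.0479% of all genes were called on named transcripts. The response difference of clone 2 called 4 lower, Il4ra (-3.08), Nckap1 (-2.25), Crk (-2.13) and Vcam1, where 10.8% of all genes were called, and that of clone 1 called 0, where 0.012% were.

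Itga7, the integrin chain of muscle that binds laminin, was called with MyoD on the length-weighted scale. It was at 2.65 to 5.90 TPM in wild type with MyoD and 0.0154 to 0.574 TPM without (log2 change 2.00 ± 0.27, adjusted p = 0.00127), and at 4.58 to 6.57 TPM in clone 2 with MyoD and 0.371 to 2.60 TPM without (1.65 ± 0.27, adjusted p = 0.00022). In clone 1 it was at 0.135 to 1.25 TPM with MyoD and 0.0309 to 1.96 TPM without, which overlap. Of the 37 list genes tested on that scale it was the 1 that rose with MyoD in wild type, where 0.143% of all genes were called.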

How the data were processed

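Per the labels, the molecule is polyadenylated RNA, copied with SMART-Seq v4 and tagmented, a protocol without strand information, and sequenced as read pairs on DNBSEQ-G400. Software named in the submitters' processing notes is StringTie 1.3.3 for assembly, SAMtools 1.3, HISAT2 2.1.0 for alignment to mm10, Trimmomatic 0.36 and bcl2fastq 2.19, whereas the file headers give StringTie 2.1.2 with GENCODE vM21 as guide, unannotated transcripts allowed. For each transcript the authors deposited TPM, FPKM and coverage, the last without normalization. Read numbers are not given, so no counting interval is. A gene without a transcript assigned to it is listed at 0, and on named transcripts that includes genes with unnamed transcripts only. Genes overlapping Cdh15, Cdh2, Dysf, Cdon, Ncam1, Adgrb1 and Cd9 make those values uncertain.

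TPM was summed per gene and library over reference-named transcripts. A gene was tested where 2 or more libraries reached 1 TPM, 16695 genes (18189 length-weighted). The test was limma 3.58.1 (R 4.3.3, trend option) on log2(TPM + 1), with 12 group means and 12 residual degrees of freedom, and was tested on simulated data. MyoD and line comparisons average the plasmid arms. Calls used a Benjamini-Hochberg adjusted p under 0.05 over all genes and a log2 change of at least 1. Python 3.11.15, pandas 2.3.3 and bedtools 2.31.1 made the tables. Named were all 10 genes, Myod1 and Myog, up to 4 called genes with the largest changes per comparison from the list of other fusion genes, and for Mymk and Mymx the 3 annotated genes most alike over the group means; Cdh15 was to be matched too but was not tested. Alternatives were other scalings, pseudocounts, filters, transcript sums, plasmid arms, a replicate block and leaving out each library. The 10 genes and all lists were chosen with earlier results of these data known.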

Additional observations from a re-analysis of the deposited data

Results flagged for a closer look

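The MyoD response of Mymx differed between clone 2 and wild type by a fitted log2 difference of 2.64 (limma adjusted p = 0.00154), which is why it is listed here. With MyoD, clone 2 had 11.3, 3.98, 8.79 and 10.0 TPM and wild type was listed at 0 in 4 of 4 libraries; without MyoD, clone 2 had 0, 0.221, 2.55 and 0 TPM and wild type 0 in 4 of 4. Because wild type is listed at 0 throughout and Mymx passed the filter through clone 2 alone, the fitted value restates the clone 2 response, depends on the pseudocount and is no fold. Muscle markers, ribosomal content and the number of genes detected also differ between clone 2 and wild type, and their part in this difference was not tested.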

How the results depend on the processing

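Counts of genes called moved by over 1.5 times in these settings. With a pseudocount of 5, Mymk in wild type and Cdon and Mymk in clone 1 against wild type dropped out, leaving 0 genes in each of these 3 comparisons, while clone 2 against wild type without MyoD had 2 instead of 4 and the clone 2 response difference 2 instead of 1. Fitting only the groups compared left 0 called for the wild type response and 0 for clone 1 against wild type without MyoD. Using the plasmid arms alone gave 2 for the wild type response, 1 for clone 1 against wild type with MyoD, 1 for the clone 1 response difference and 3 for that of clone 2; using the arms without plasmid gave 1 and 2 for these differences. Median-of-ratios scaling gave 2 for clone 2 against wild type without MyoD, 3 with MyoD and 1 for the plasmid without MyoD, and rescaled totals gave 3 with MyoD. FPKM gave 2 for the clone 2 response difference, and so did adding unnamed transcripts; length weighting gave 3. Length weighting with rescaled totals gave 2 for clone 1 against wild type without MyoD. The cause of these moves was not tested, except that a larger pseudocount shrinks the changes of low genes by construction.

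Direction turned for Cdon in clone 2 against wild type when unnamed transcripts were added, to 0.87 with MyoD (adjusted p = 0.0131) and 0.63 without (0.0549), and for Mymk in clone 2 against wild type with MyoD under median-of-ratios scaling (-0.63). Leaving out 1 library at a time gave 1 to 1 calls for the wild type response, 0 to 0 for clone 1, 2 to 4 for clone 2, 1 to 1 and 2 to 2 for clone 1 against wild type without and with MyoD, 4 to 4 and 5 to 6 for clone 2, 0 to 0 and 0 to 1 for the plasmid without and with MyoD, and 0 to 0 and 1 to 2 for the response differences. The 1 plasmid call was Mymk without clone 2 with MyoD replicate 1.

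The replicate numbers do not pair the libraries: deviations from group means correlated at -0.063 to 0.0489 over 66 pairs of groups, 0 of them above 0.1. With the replicate number as a block, all 17 called changes of these genes kept their call, with 1 gene called in the wild type response as before. The MyoD response of Mymk in clone 2 and Cd9 in clone 2 against wild type kept their calls in all alternatives. Without read numbers, 0 means that no transcript was assigned to the gene on that scale, not that the gene was off. On named transcripts a gene at 0 can still have unnamed transcripts, as Ncam1 in clone 1 and Dysf did. Length weighting was chosen after seeing the data.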
